A study of Mus musculus with 8 samples.

Results

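Transcripts of 9 lipoxygenase and leukotriene genes were followed in mouse esophagus with and without monoacylglycerol lipase (MGL, gene Mgll). The members were the rows of the count table named Alox5, Alox5ap, Lta4h and Ltc4s, which form the 5-lipoxygenase route, and Alox12, Alox12b, Alox12e, Alox15 and Aloxe3, the other lipoxygenases. All 9 were found among 32849 listed gene symbols. Of these, 8 passed a filter on low counts that left 14864 genes to test, and Alox12e did not. RNA sequencing was done on poly(A)-selected RNA of esophagi from healthy, untreated MGL KO mice, which lack MGL in the whole body, and from WT littermates. Each genotype had 4 libraries, numbered 1 to 4, and the question was how the tissue differs at baseline. The study used young adult mice of both sexes, and the labels give neither the age nor the sex behind a library.

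Lipoxygenases add molecular oxygen to polyunsaturated fatty acids such as arachidonic acid, which MGL releases from the endocannabinoid 2-arachidonoylglycerol. In leukocytes, 5-lipoxygenase (Alox5) takes arachidonic acid from its membrane partner FLAP (Alox5ap) and makes leukotriene A4, which Lta4h turns into the chemoattractant leukotriene B4 and Ltc4s into leukotriene C4, the parent of the cysteinyl leukotrienes of mast cells, eosinophils and macrophages. In stratified epithelium, Alox12b and Aloxe3 act one after the other on linoleate held in ceramides, a step known for building the water barrier of the skin.

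The genes lie on 4 chromosomes, given here on GRCm39. Alox5 (chr6:116387032-116438139), Alox5ap (chr5:149196003-149227762) and Lta4h (chr10:93289210-93320749) lie apart, and the other 6 share chromosome 11. There, Ltc4s (chr11:50127288-50129443) is the smallest locus, with 5 exons in its canonical transcript. Aloxe3 (chr11:69016722-69039941) and Alox12b (chr11:69041472-69060618) are neighbors on the plus strand, and Alox12b starts 1.53 kb after the end of Aloxe3. Alox12 (chr11:70132283-70146221), Alox12e (chr11:70206436-70213454) and Alox15 (chr11:70234970-70242858) follow on the minus strand. Noncoding RNAs on the opposite strand overlap exons of Alox5, Alox5ap, Ltc4s, Alox12 and Alox12b, and as the use of strand in counting was not stated, reads of these partners cannot be told apart.

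Promoter sequences from RefSeq (GRCm38.p6, 250 bases before to 50 after the gene start) were found for 6 of the 9 members, all but Alox5ap, Alox15 and Aloxe3. Those of 3 members are shown. Ltc4s was the member whose genotypes separated after library scaling. Alox5 is the first enzyme of the same route, and Alox12b followed the squamous epithelium. The 3 promoters are chr11:50238483-50238782, chr6:116461129-116461428 and chr11:69156822-69157121, the first 2 on the minus strand and Alox12b on the plus strand. Capitals mark the GC box GGGCGG, a site of Sp1-type factors, and the ETS core GAGGAA, read by myeloid factors such as PU.1, each on either strand.
Ltc4s: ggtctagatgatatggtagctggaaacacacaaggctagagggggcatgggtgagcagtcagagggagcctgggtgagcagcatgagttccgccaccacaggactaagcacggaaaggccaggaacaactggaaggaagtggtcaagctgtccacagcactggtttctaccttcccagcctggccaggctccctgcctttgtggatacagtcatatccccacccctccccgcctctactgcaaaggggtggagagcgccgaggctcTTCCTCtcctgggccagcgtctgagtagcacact
Alox5: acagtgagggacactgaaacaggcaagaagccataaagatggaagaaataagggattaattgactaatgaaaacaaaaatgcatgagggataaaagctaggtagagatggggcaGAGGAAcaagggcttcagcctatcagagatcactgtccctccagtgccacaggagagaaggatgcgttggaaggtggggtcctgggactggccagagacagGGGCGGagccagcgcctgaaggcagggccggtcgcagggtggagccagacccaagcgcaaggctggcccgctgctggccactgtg
Alox12b: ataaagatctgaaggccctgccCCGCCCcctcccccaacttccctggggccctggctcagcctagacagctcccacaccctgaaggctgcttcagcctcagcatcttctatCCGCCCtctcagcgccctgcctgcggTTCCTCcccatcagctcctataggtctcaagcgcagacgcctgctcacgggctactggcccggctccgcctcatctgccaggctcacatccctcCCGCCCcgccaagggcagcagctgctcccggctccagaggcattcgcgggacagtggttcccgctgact
The Ltc4s promoter held 1 match, an ETS core that starts 17 bases after the gene start on the reverse strand. The Alox5 promoter held 1 GC box and 1 ETS core, and that of Alox12b held 3 GC boxes and 1 ETS core. Of the 27025 promoters in the same table, 35.9% had a GC box and 28.3% an ETS core, against 4 and 5 of the 6 members. The AP-1 site TGANTCA (7.93% of all promoters) and the TATA box TATAAA (14.2%) had no match in the 6. The matches did not overlap each other. The Alox12b promoter was the richest of the 3 in G and C, with 66% against 58.7% for Ltc4s and 55.7% for Alox5, and the median over all promoters was 52.7%.

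Levels are given as normalized CPM, the usual counts-per-million unit, taken over the tested genes and scaled by TMM factors. Library totals ran from 13479069 to 17090152 counts. Where a gene had 0 counts, its true level may be as high as 3 counts, which is 0.167 to 0.271 normalized CPM. This bound covers counting error only. Mgll itself lay at 12.6 to 16.0 in MGL KO and 66.6 to 88.3 in WT (log2 fold change -2.57 ± 0.13 SE, edgeR quasi-likelihood test, adjusted p = 0.000133), as the labels state. Of the markers of the tissue, the summed differentiated squamous epithelium genes lay at 2129 to 15892 and the skeletal muscle genes at 31530 to 78802. MGL KO replicate 2 had the lowest squamous sum. MGL KO replicate 4 carried airway transcripts, with secretory markers summing to 7295 against 0.131 to 41.4 elsewhere. WT replicate 1 had the most macrophage (632) and lymphocyte (102) marker transcript. These 3 libraries stand apart, and the log2 fold changes of the tested members are given with and without them.

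None of the 8 tested members differed between the genotypes at an adjusted p under 0.05 (edgeR quasi-likelihood test over all tested genes), a threshold passed by 7 of the 14864 genes (0.0471%). At an unadjusted p under 0.05, 1 member was reached, Ltc4s, against 8.65% of all genes in either direction and 4.29% lower in MGL KO. Ltc4s was also the 1 member whose genotypes did not overlap in normalized CPM. Over all genes this held for 6.02% in either direction and for 3.30% lower in MGL KO. Neither share sets the members apart from the background. Over the 8, log2 fold changes were positive for 3 and negative for 5, with a median of -0.26 against 0.02 over all tested genes. The counting of calls was repeated with edgeR's exact test on the filtered genes (0.437% called), the exact test with no filter (0.185%), DESeq2 (0.935%) and limma-voom with sample quality weights (0.168%), and no member was called by any of these. With 4 libraries a group, p-values set the genotype difference against the variation between libraries, estimated with information shared over genes. A p that misses the threshold does not show that levels were equal.

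**Figure D1:**
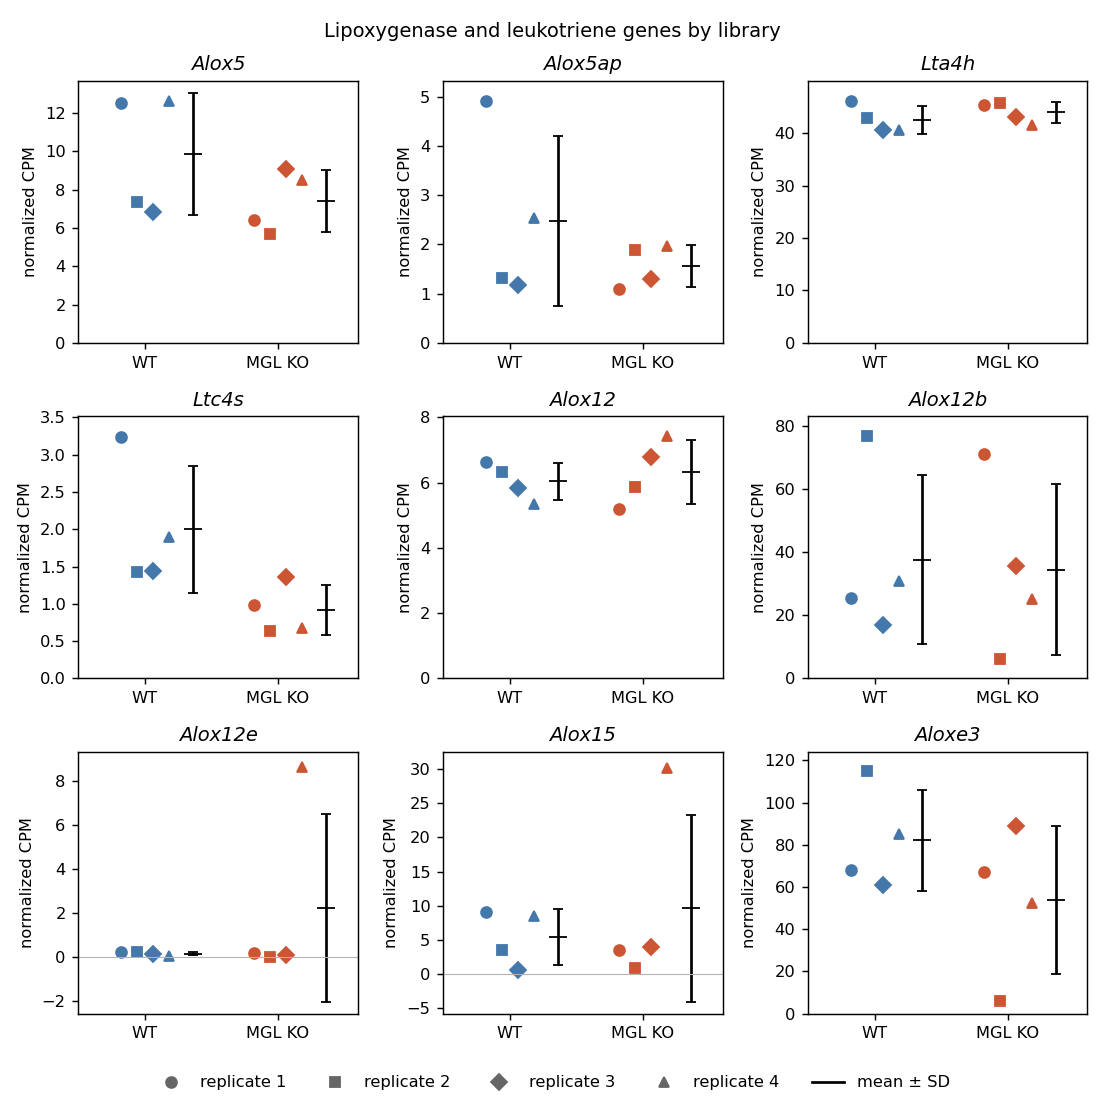
Normalized CPM of the 9 members (vertical axes, linear, a scale for each gene) in 4 WT (blue) and 4 MGL KO (orange) libraries, with the shape marking the replicate number and black bars the mean ± SD, which fall below 0 for Alox12e and Alox15 because 1 library holds most of the transcript. In Ltc4s all MGL KO points lie under all WT points, and in the other 8 panels the genotypes overlap.

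Alox5, the first enzyme of leukotriene synthesis, was measured at 6.43, 5.69, 9.06 and 8.49 normalized CPM in MGL KO replicates 1 to 4 and at 12.6, 7.36, 6.84 and 12.6 in WT replicates 1 to 4. WT replicates 1 and 4 lay above every other library, and the remaining WT libraries lay among the MGL KO libraries. The mean was 7.42 ± 1.62 in MGL KO and 9.85 ± 3.18 in WT (SD, n = 4). MGL KO minus WT, this was a log2 fold change of -0.41 ± 0.27 SE with an adjusted p of 0.683 (edgeR quasi-likelihood test). It was -0.27 without WT replicate 1, -0.26 without WT replicate 4 and -0.21 without the 3 libraries that stand apart.

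Alox5ap, which presents arachidonic acid to 5-lipoxygenase, lay at 1.10, 1.90, 1.29 and 1.97 normalized CPM in the MGL KO libraries and at 4.91, 1.31, 1.18 and 2.54 in the WT libraries. The same pair of WT libraries, 1 and 4, was highest, and WT replicates 2 and 3 fell within the MGL KO range. Between the genotypes, the log2 fold change was -0.67 ± 0.48 SE (edgeR quasi-likelihood test, adjusted p = 0.702), and it was -0.10 without WT replicate 1 and -0.48 without the 3 libraries. Counts per library were low, between 18 and 88.

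Lta4h, the hydrolase that makes leukotriene B4, was the steadiest member. It lay at 45.4, 45.8, 43.2 and 41.6 normalized CPM in MGL KO and at 46.2, 42.9, 40.6 and 40.6 in WT. The highest of the 8 libraries was 1.14 times the lowest, and the genotypes overlapped. Its log2 fold change was 0.05 ± 0.08 SE (edgeR quasi-likelihood test, adjusted p = 0.883), and leaving out any 1 library kept it between 0.02 and 0.09, and leaving out the 3 that stand apart gave 0.10.

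In normalized CPM, Ltc4s, the synthase of leukotriene C4, was lower in every MGL KO library than in any WT library. Its adjusted p missed the threshold. It lay at 0.98, 0.632, 1.36 and 0.674 normalized CPM in MGL KO replicates 1 to 4 and at 3.24, 1.43, 1.45 and 1.89 in WT replicates 1 to 4. The nearest libraries were MGL KO replicate 3 at 1.36 and WT replicate 2 at 1.43, and WT replicate 1 was the highest. MGL KO replicate 3 and WT replicate 3 both had 22 counts, out of totals of 15862403 and 16152110. Their order therefore rests on the TMM factors (1.02 and 0.942), and on library size alone the genotypes overlap. The MGL KO mean of 0.911 ± 0.335 was 45.5% of the WT mean of 2.00 ± 0.851 (SD, n = 4). The log2 fold change was -1.12 ± 0.39 SE, with an unadjusted p of 0.0178 and an adjusted p of 0.509 (edgeR quasi-likelihood test). These values rest on 7 to 22 counts per MGL KO library and 22 to 58 per WT library. Without WT replicate 1 the log2 fold change was -0.79 (edgeR, unadjusted p = 0.0615), and without all 3 libraries that stand apart it was -0.44 (unadjusted p = 0.291). Of the 19 alternatives that tested Ltc4s, 15 kept an unadjusted p under 0.05, and the others were these 2, limma-voom with quality weights (log2 fold change -0.77) and a macrophage covariate (-0.51). For Ltc4s, the 3 libraries that stand apart held the 2 lowest MGL KO values and the highest WT value. Leaving them out therefore had to shrink the difference.

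In bulk tissue, fewer cells of a type and less RNA per cell cannot be told apart. Macrophage markers moved with Alox5, Alox5ap and Ltc4s, and their relation with Lta4h was not tested. Of the 8 macrophage markers, all were tested, 7 had negative log2 fold changes, all 7 at an unadjusted p under 0.05, and none was called. Their median log2 fold change was -0.89. Their summed level ran from 199 to 261 normalized CPM in MGL KO and from 227 to 632 in WT, and WT replicate 1 and WT replicate 4 (381) were the highest, as they were for Alox5, Alox5ap and Ltc4s.

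Across the 8 libraries, log2 levels of Ltc4s followed the mean of the macrophage markers (Pearson r = 0.85, exact permutation p = 0.00345, adjusted over 12 relations 0.0207, Spearman rho = 0.71, exact permutation p = 0.0576). Without WT replicates 1 and 4, the libraries farthest from the median marker level, r fell to 0.43. Alox5ap gave r = 0.89 (exact permutation p = 0.00843, adjusted 0.0232, rho = 0.69, exact permutation p = 0.0694) and 0.05 without the same 2 libraries. Alox5 gave r = 0.81 (exact permutation p = 0.0126, adjusted 0.0253, rho = 0.69, exact permutation p = 0.0694) and 0.21 without them. All 3 relations therefore rest on those 2 WT libraries, and with 4 libraries a genotype was too small for a correlation of its own. After subtraction of the genotype means, r was 0.75 for Ltc4s, 0.91 for Alox5ap and 0.75 for Alox5. The Ltc4s relation then no longer passed the threshold after adjustment, whereas the other 2 did. The labels give no sequencing batch.

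**Figure D2:**
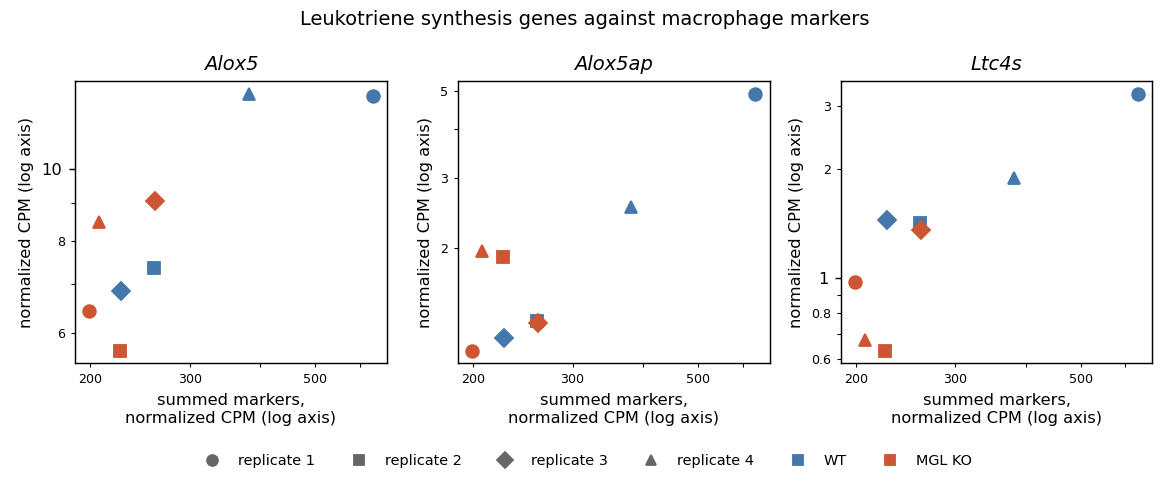
Normalized CPM of Alox5, Alox5ap and Ltc4s (vertical axes, log scale) against the summed normalized CPM of the macrophage markers (horizontal axes, log scale) in the 8 libraries, blue for WT and orange for MGL KO, with the shape marking the replicate number. WT replicates 1 and 4 lie to the right of the other libraries, at marker sums of 632 and 381.

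Set against the macrophage marker sum of the same library, Ltc4s lay at 4.92, 2.80, 5.20 and 3.25 counts per 1000 marker counts in MGL KO and at 5.12, 5.49, 6.37 and 4.96 in WT. On this scale the genotypes overlapped, by MGL KO replicate 3 at 5.20 and WT replicates 1 and 4. The log2 difference was -0.45 ± 0.22 SE (exact permutation test, two-sided, p = 0.143, adjusted over 5 ratios 0.357). For Alox5 the same ratio turned the direction, with a log2 difference of 0.26, and for Alox5ap too, with 0.18. The ratios were chosen after the data were seen, and whether macrophage content sets the Ltc4s values was not tested.

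Markers of other leukocytes were also followed. Neutrophil markers summed to 2.26 to 13 in MGL KO and 1.91 to 17.8 in WT, with 2 of 6 tested. Of the 6 lymphocyte markers 4 were tested, all 4 had negative log2 fold changes, with a median of -1.16, and none was called. Both lists, like that of the macrophages, were highest in WT replicate 1. Of the 6 eosinophil markers none was tested, Epx and Ear6 had no count in any library, and the sum did not exceed 2.06 normalized CPM. Mast cell markers summed to 1.26 to 5.61 in MGL KO and 0.789 to 14.7 in WT, with WT replicate 1 highest. Of the 6, 3 were tested, all 3 had negative log2 fold changes, with a median of -0.88, and none was called. The relation of Alox5 with the mast cell markers missed the threshold after adjustment (r = 0.75, exact permutation p = 0.0324, adjusted 0.0542, rho = 0.76, exact permutation p = 0.0368) and was r = 0.62 without WT replicates 1 and 3. Alox5 and Alox5ap, partners in 1 reaction, gave r = 0.73 (exact permutation p = 0.0361, adjusted 0.0542, rho = 0.64, exact permutation p = 0.0962) and r = 0.00 without WT replicates 1 and 4. The Alox5 count was 2.95 to 6.86 times that of Alox5ap in MGL KO and 2.55 to 5.65 times in WT (log2 difference 0.08 ± 0.38 SE, exact permutation test, two-sided, p = 0.743).

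Alox12b and Aloxe3, the pair of the epithelial barrier, were among the most abundant members and varied widely between libraries of the same genotype. Alox12b lay at 70.9, 6.14, 35.6 and 25.1 normalized CPM in MGL KO and at 25.4, 76.8, 17 and 31.0 in WT. The highest and lowest libraries, WT replicate 2 and MGL KO replicate 2, differed 12.5-fold, and the genotypes overlapped almost fully. Its log2 fold change was -0.12 ± 0.67 SE (edgeR quasi-likelihood test, adjusted p = 0.965), and leaving out 1 library moved it between -0.74 (without MGL KO replicate 1) and 0.50 (without WT replicate 2). It was 0.36 without the 3 libraries that stand apart.

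Aloxe3 lay at 67.0, 6.05, 88.9 and 52.7 normalized CPM in MGL KO and at 68.1, 115, 61.1 and 84.9 in WT. The same 2 libraries were at the ends, 19.0-fold apart, and the other MGL KO libraries lay within or below the WT range. For Aloxe3, MGL KO minus WT gave a log2 fold change of -0.61 ± 0.59 SE (edgeR quasi-likelihood test, adjusted p = 0.772), -0.24 without MGL KO replicate 2 and -0.16 without the 3 libraries.

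Alox12b ranked the 8 libraries in exactly the order of the 9 tested differentiated squamous markers, a list of keratins and envelope proteins of the upper epithelial layers. On the log2 scale r was 0.99 (exact permutation p = 2.48e-05, the smallest the 8 libraries can give, adjusted over 12 relations 0.000298) and rho was 1.00 (exact permutation p = 4.96e-05). Without MGL KO replicate 2 and WT replicate 2, the libraries at the ends, r was 0.95 (exact permutation p = 0.00972). With these fewer libraries it no longer passed the threshold after adjustment over the 12 relations. After subtraction of the genotype means it was 0.99. The squamous markers themselves lay at 2129 to 14077 summed normalized CPM in MGL KO and at 3074 to 15892 in WT, and 0 of the 9 passed an unadjusted p of 0.05. The basal squamous list varied less, from 2976 to 5569 over all libraries, and the markers of cornified skin summed to only 6.05 to 12.5.

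Aloxe3 followed the same list less closely, with r = 0.86 (exact permutation p = 0.00618, adjusted 0.0232, rho = 0.83, exact permutation p = 0.0154) and r = 0.41 without the 2 libraries at the ends. With Alox12b, Aloxe3 gave r = 0.84 (exact permutation p = 0.00965, adjusted 0.0232, rho = 0.83, exact permutation p = 0.0154), which fell to 0.30 without those 2. Both Aloxe3 relations rest on these libraries. Whether the 2 correlations with the squamous list differ was not tested.

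**Figure D3:**
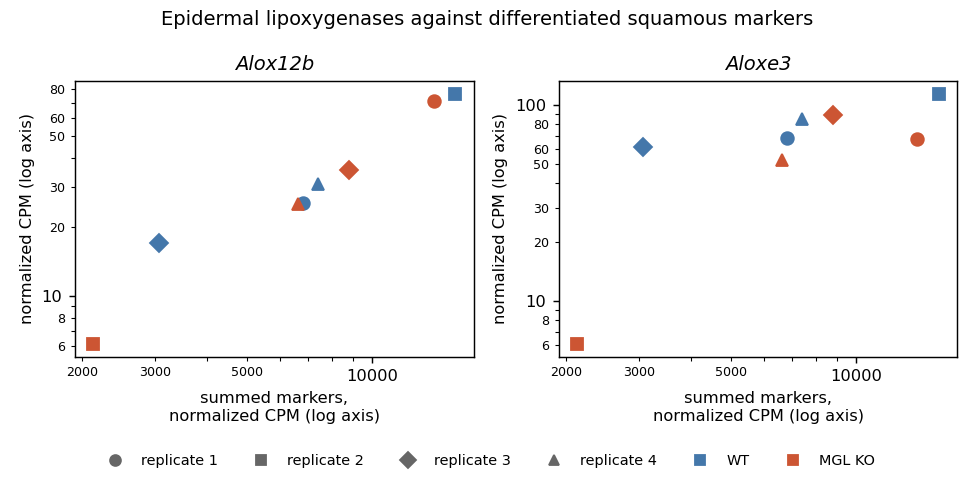
Normalized CPM of Alox12b and Aloxe3 (vertical axes, log scale) against the summed normalized CPM of the differentiated squamous epithelium markers (horizontal axes, log scale) in the 8 libraries, blue for WT and orange for MGL KO, with the shape marking the replicate number. Alox12b climbs along a single line from MGL KO replicate 2 to WT replicate 2, and Aloxe3 scatters more widely between the same ends.

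The Alox12b count relative to that of Aloxe3 was 1.06, 1.01, 0.401 and 0.477 in MGL KO and 0.373, 0.669, 0.278 and 0.365 in WT. MGL KO replicates 1 and 2 lay above all WT libraries, and the other 2 lay inside the WT range. The log2 difference of 0.76 ± 0.45 SE did not pass an exact permutation test (two-sided, p = 0.143, adjusted over 2 ratios 0.286, the smallest possible p being 0.0286). Per squamous marker transcript, Alox12b differed by a log2 difference of -0.22 (exact permutation p = 0.343) and Aloxe3 by -0.98 ± 0.51 SE (exact permutation p = 0.143, adjusted over 5 ratios 0.357).

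Alox12, the 12-lipoxygenase of platelets that is also made in epithelium, held a narrow range. It lay at 5.20, 5.87, 6.78 and 7.42 normalized CPM in MGL KO and at 6.64, 6.34, 5.85 and 5.35 in WT. The MGL KO libraries spanned the whole WT range. The log2 fold change was 0.06 ± 0.19 SE (edgeR quasi-likelihood test, adjusted p = 0.927), 0.04 without the 3 libraries and -0.02 without MGL KO replicate 4. It gave r = 0.02 with the squamous markers (exact permutation p = 0.972, rho = -0.12, exact permutation p = 0.793), and r = -0.16 with the platelet markers (exact permutation p = 0.708, rho = -0.14, exact permutation p = 0.752), which summed to 18.7 to 29.3.

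Alox15, the 12/15-lipoxygenase of mouse macrophages and airway epithelium, was dominated by 1 library. It lay at 3.43, 0.902, 3.95 and 30.1 normalized CPM in MGL KO and at 9.04, 3.42, 0.526 and 8.41 in WT. MGL KO replicate 4 lay above all others, and the remaining 7 libraries overlapped. The log2 fold change of 0.85 ± 1.05 SE (edgeR quasi-likelihood test, adjusted p = 0.817) became -0.93 without that library and -0.16 without the 3 that stand apart. The airway ciliated markers of MGL KO replicate 4 summed to 523 normalized CPM, against 10.4 to 17.9 in the other 7. Alox15 and this list gave r = 0.62 (exact permutation p = 0.132, adjusted 0.176, rho = 0.12, exact permutation p = 0.793) and -0.13 without MGL KO replicate 4. With the macrophage markers r was 0.31 (exact permutation p = 0.448, rho = 0.24, exact permutation p = 0.582), or 0.68 without MGL KO replicate 4. The part of the airway transcripts in the Alox15 level was not tested.

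Alox12e, an epidermal-type 12-lipoxygenase of the mouse, was close to the counting limit in all but that same library. Its counts were 3, 0, 2 and 153 in MGL KO replicates 1 to 4 and 4, 4, 2 and 1 in WT replicates 1 to 4. MGL KO replicate 4 reached 8.60 normalized CPM, whereas the other 7 libraries stayed at or below 0.228. It did not pass the filter. With no filter, edgeR's exact test gave it an adjusted p of 0.657.

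Per kilobase of the canonical transcript, a scale on which genes can be compared, the WT level was highest for Aloxe3 (27.2 ± 7.93 normalized CPM per kb), Lta4h (20.7 ± 1.29) and Alox12b (15.4 ± 11, SD, n = 4), whose WT ranges overlapped from one to the next. A second tier, again with overlapping neighbors, held Alox5 (3.48 ± 1.13), Ltc4s (3.03 ± 1.29), Alox15 (2.21 ± 1.69) and Alox12 (2.01 ± 0.189). Alox5ap (0.891 ± 0.619) and Alox12e (0.0669 ± 0.0324) had the lowest means. The WT range of Alox5ap lay below that of Alox12 but inside that of Alox15, and the WT range of Alox12e lay below that of Alox5ap. The hydrolase of the leukotriene B4 branch was thus present at a higher level than the oxygenase, its partner and the synthase of the leukotriene C4 branch in every WT library.

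**Figure D4:**
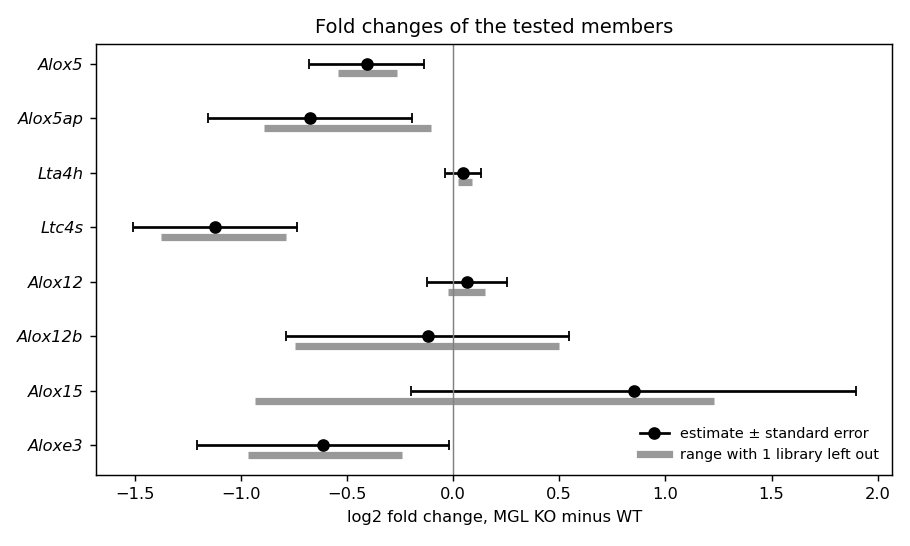
Log2 fold change, MGL KO minus WT, with its standard error (horizontal axis, black) for the 8 tested members, and gray bars for its range when 1 library is left out. Ltc4s lies at -1.12, Lta4h at 0.05 has the shortest bars, and Alox15 at 0.85 the longest.

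For each tested member, the 3 genes whose log2 levels were most alike over the 8 libraries were taken as a description, without a test, since they were the highest of 14864. Alox12b was closest to Mt4, a metallothionein of stratified squamous epithelium, and to Hsd17b2 and Rbp2 (Pearson r of 0.99 to 1.00). Aloxe3 was closest to Anxa9, Tex101 and Eps8l1 (1.00 each). Alox5ap was closest to Plxnc1, Mpeg1 and Arhgap9 (0.96 to 0.98), of which Mpeg1 encodes perforin-2 of macrophages. Ltc4s was closest to Gstt2, Tec and Lilrb4a (0.96 to 0.98), the last an inhibitory receptor of myeloid cells, and Alox5 to Man1c1, Zfp964 and Clec14a (0.96 to 0.97). The highest values of Lta4h (Ell2, Ppp3cc and Slc15a4) were 0.90 to 0.92, and those of Alox12 (Samd5, Kifc3 and Fam184a) 0.92 to 0.93. Alox15 was closest to Rcc2, Mtmr12 and Heatr5b (0.98 to 0.99). All of these values rest on the same 8 libraries, whose tissue content differs as given above, and likeness here is a description only.

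Around the members, 37 further genes of the pathway were listed, of which 29 were tested. None was called (smallest adjusted p = 0.492, edgeR quasi-likelihood test). Log2 fold changes were positive for 9 and negative for 20, with a median of -0.16 against 0.02 over all tested genes, where 7884 were positive and 6980 negative. At an unadjusted p under 0.05 there were 2, both lower in MGL KO, against 8.65% of all tested genes in either direction and 4.29% lower. Of these, 1 had genotypes that did not overlap, against 3.30% of all genes that lay apart and lower in MGL KO. Both counts are near the background, and the 2 genes are given as a description.

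That gene was Mgst2, a microsomal glutathione transferase that can also make leukotriene C4. It lay at 60.4, 33.5, 61.7 and 57.0 normalized CPM in MGL KO and at 66.1, 91.3, 90.1 and 82.9 in WT. The MGL KO libraries all lay below the lowest WT library, replicate 1. The log2 fold change was -0.63 ± 0.20 SE, with an unadjusted p of 0.0105 and an adjusted p of 0.492 (edgeR quasi-likelihood test). It ranged from -0.73 to -0.46 when 1 library was left out, and it stayed at an unadjusted p under 0.05 in all 20 alternatives.

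The other was Pla2g4e, a cytosolic phospholipase A2, at 54.9, 24.7, 61.1 and 30.6 in MGL KO and 58.3, 80.4, 68.4 and 68.5 in WT, named because it completes a count of 2. MGL KO replicate 3 overlapped WT replicate 1, and the log2 fold change was -0.68 ± 0.28 SE (edgeR quasi-likelihood test, adjusted p = 0.550), -0.49 without MGL KO replicate 2 and -0.90 without MGL KO replicate 3. Its unadjusted p was under 0.05 in 15 of the 20 alternatives.

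By role, the 5 tested genes of arachidonate release were split 3 positive to 2 negative with a median log2 fold change of 0.01. Of the 6 tested genes of cysteinyl leukotriene synthesis, export and processing, 5 were negative, with a median of -0.33. All 3 tested genes of leukotriene B4 breakdown were negative, with a median of -0.39. The 10 genes of the cornified lipid envelope, which serve the same barrier as Alox12b and Aloxe3, were negative in 7 and ran from -0.51 to 0.35. None of these genes was called, and the counts are a description of each list. Within the envelope list, the spread over the libraries ran from 1.59-fold for Ugcg to 16.7-fold for Sdr9c7. MGL KO replicate 2, the lowest library for the barrier pair, was the lowest for 7 of the 10 genes, whereas Cers3 and Cyp4f39 were lowest in WT replicate 3 and Ugcg in MGL KO replicate 3. These genes were named after their values were seen.

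Of the receptors, Ltb4r1, the high-affinity receptor of leukotriene B4, lay at 17.1 ± 4.30 normalized CPM in MGL KO and 16.3 ± 1.03 in WT (SD, n = 4), a log2 fold change of 0.07 ± 0.18 SE. Ltb4r2, the low-affinity receptor, lay at 16.4 ± 5.31 and 16.8 ± 4.77 (-0.03 ± 0.29 SE). Both genotypes overlapped in each. Cysltr1, a receptor of cysteinyl leukotrienes, lay at 2.15 ± 0.957 in MGL KO and 3.34 ± 1.30 in WT, a log2 fold change of -0.63 ± 0.39 SE with overlapping libraries (edgeR quasi-likelihood test, adjusted p = 0.667). It was -0.37 without WT replicate 1 and -0.97 without MGL KO replicate 3. Cysltr2 had 0 to 13 counts per library and was not tested.

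**Figure D5:**
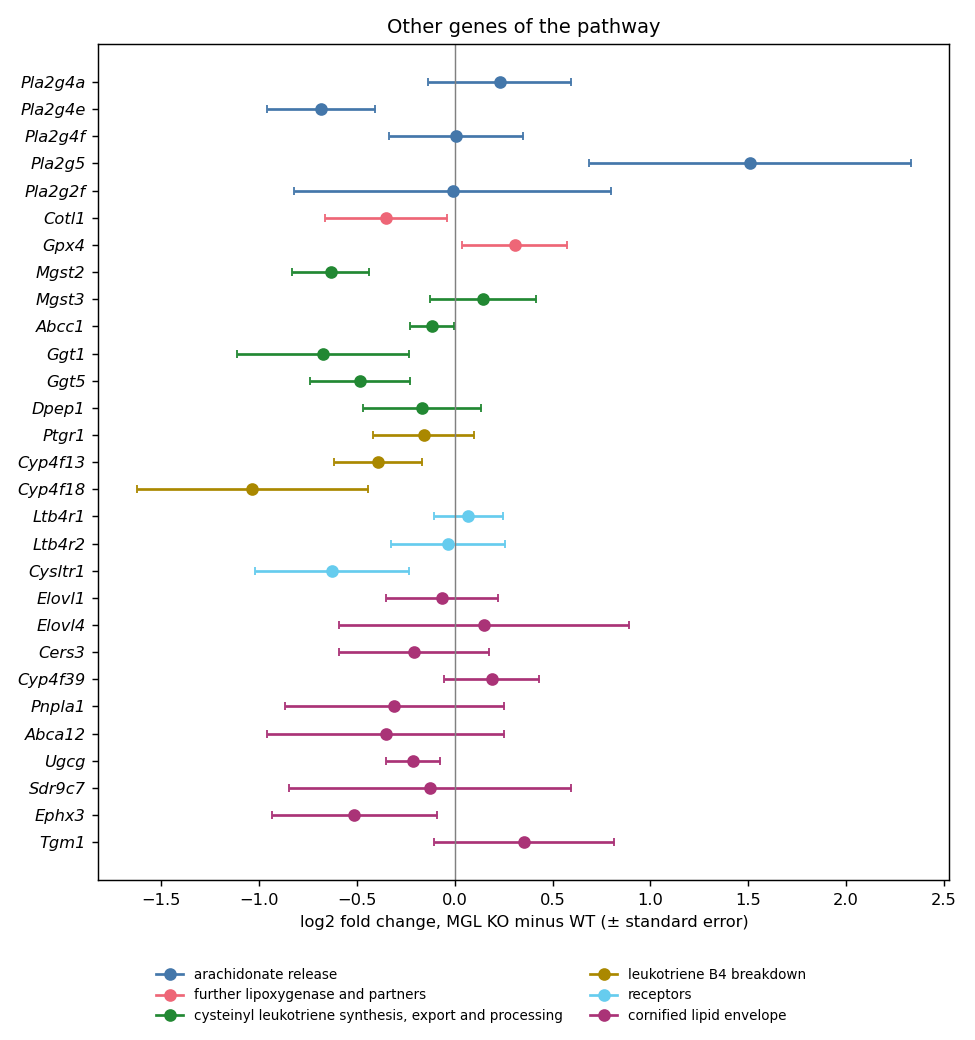
Log2 fold change, MGL KO minus WT, with its standard error (horizontal axis) for the 29 tested further genes of the pathway, colored by role. Mgst2 at -0.63 and Pla2g4e at -0.68 are the 2 genes with an unadjusted p under 0.05, and the widest bars belong to genes with few counts or with large differences between mice.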

How the data were processed

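RNA of 4 MGL KO and 4 WT esophagi was poly(A)-selected and sequenced on 2 NovaSeq models (Illumina), with no statement of which library ran on which. The authors trimmed adapters with Cutadapt, aligned reads to GRCm39 with STAR (2.7.10b per the submitters' processing notes) and deposited raw counts per gene symbol, without normalization. The counting tool and its use of strand are not given in the sources used here, so antisense and paralogous reads may be shared between genes.

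Groups were taken from the sample titles. Genes were kept by filterByExpr (edgeR 4.0.16, R 4.3.3) at a minimum count of 10, scaled by TMM and compared by the quasi-likelihood test of edgeR. Adjustment was by Benjamini-Hochberg over 14864 genes, at a threshold of 0.05. Alternatives included the exact test of edgeR, which is the test in the study's methods, DESeq2 1.42.0 and limma-voom (limma 3.58.1). Standard errors were derived from the F statistic. Log2 levels used a prior count of 1, ratios added 0.5 to each count, and the ratio of Ltc4s to Lta4h was left out because Ltc4s had under 10 counts in 1 library. Relations with Alox12e were left out because it was not tested. The members and gene lists were chosen with earlier results of these data known. Named genes were the members, Mgll, pathway genes that were called or did not overlap, 4 leukotriene receptors, the 3 genes most alike to each member and single markers beside a result. Pla2g4e and the envelope genes Ugcg, Sdr9c7, Cers3 and Cyp4f39 lie outside this rule and were named after their values were seen. The scripts were tested on simulated data with 200 changed genes. The quasi-likelihood test recovered 48.8% of changes of log2 size 1 and 76.7% of size 2. False calls made up 6.5% of its calls, 19.8% with the exact test, 25.1% with DESeq2 and 5.2% with limma-voom. Positions came from GENCODE on GRCm39 and promoters from RefSeq on GRCm38.p6. No pair of libraries of a group agreed within sampling noise (chi-square per degree of freedom 13.6 or more).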

Additional observations from a re-analysis of the deposited data

Results flagged for a closer look

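In a screen of 22 groups of 4 libraries for a library far from the other 3 (Dixon's test at 95%), 2 groups had one, and chance alone gives about 1 in 20 groups, or 1.1 here. Both were in MGL KO replicate 4. Alox12e lay at 8.60 normalized CPM there, against 0.184 in the next MGL KO library. Alox15 lay at 30.1 there, against 3.95 in the next. That library also held the airway transcripts, with ciliated markers at 523 against 10.4 to 17.9 in the other 7 libraries and secretory markers at 7295 against 0.131 to 41.4. The part of these transcripts in the levels of Alox12e and Alox15 was not tested.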

How the results depend on the processing

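No tested member and no tested further pathway gene was called under any of the 20 alternatives, of which 2 tested Alox12e. Ltc4s and Alox15 could not be tested where 10 counts were required of every library. In the other alternatives the log2 fold change of Ltc4s was negative. Depth limits Alox12e, Ltc4s, Alox15 and Alox5ap, with 0, 7, 8 and 18 counts in their lowest libraries. A macrophage covariate, the ratios to marker sums and the removal of the 3 libraries that stand apart (MGL KO replicates 2 and 4 and WT replicate 1) were added once the data had been seen. The cause of the changes below was not tested.

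Over all genes, 7 were called by the quasi-likelihood test, 137 by DESeq2, 65 by the exact test on filtered genes and 42 on all genes, and 25 by limma-voom with quality weights. There were 2 with no filter, 2 with the squamous or the macrophage covariate, 2 without the 3 libraries that stand apart, and 2 to 5 when 1 library was left out. Every single omission but that of WT replicate 4 moved the count by over 1.5 times. Same-numbered libraries did not deviate together (correlations of -0.28 to 0.08). Differences in tissue content can hide a pairing in such correlations, so a shared origin is not excluded. The fit with the replicate number as a block called 2 genes and no member.

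The log2 fold change turned its sign for Alox12b with limma-voom (0.0060), the squamous covariate (0.0052), without MGL KO replicate 2 (0.23), MGL KO replicate 4 (0.0092) or WT replicate 2 (0.50), and without the 3 libraries (0.36). Its range was -0.74 to 0.50 when 1 library was left out. Alox15 turned with limma-voom (-0.023), without MGL KO replicate 4 (-0.93, in a range up to 1.23) and without the 3 libraries (-0.16). Alox12 turned without MGL KO replicate 4 (-0.022, in a range up to 0.15) and Lta4h with library size alone (-0.0046). Alox5 and Alox5ap turned with the macrophage covariate (0.050 and 0.46) and as ratios to the macrophage sum (0.26 and 0.18). With the macrophage covariate Ltc4s gave -0.51 (edgeR, adjusted p = 0.850, with a range of 0.338 to 0.923 over its alternatives). The same covariate gave 2.29 for Alox15 and -0.60 for Alox12b, without a change of sign. The replicate block gave 0.34 for Alox15.

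The log2 difference in the Alox5 to Alox5ap ratio lay between -0.18 and 0.31 when 1 library was left out. Without the 2 libraries farthest from the median, r was 0.30 for Alox12b with Aloxe3, 0.95 for Alox12b and 0.41 for Aloxe3 with the squamous markers, -0.26 for Alox12 with the squamous markers, -0.25 for Alox15 with the ciliated markers, and, with the macrophage markers, -0.21 for Alox15, 0.21 for Alox5, 0.052 for Alox5ap and 0.43 for Ltc4s. Without MGL KO replicate 2 or 4, r was 0.61 to 0.84 for Alox12b with Aloxe3 and 0.73 to 0.88 for Alox5 with Alox5ap. With the squamous markers it was 0.66 to 0.86 for Aloxe3 and -0.16 to 0.050 for Alox12. For Alox15 with the ciliated markers it was -0.13 to 0.58. Without replicate 2, Alox5 with Alox5ap passed the threshold after adjustment. Alox12b with Aloxe3 (exact permutation p = 0.140) and Aloxe3 with the squamous markers (exact permutation p = 0.103) no longer did. After subtraction of genotype means, Ltc4s with the macrophage markers gave 0.75 (exact permutation p = 0.0253) and no longer passed the threshold after adjustment.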
